A study of Mus musculus with 12 samples.

Results

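The effect of LY, an inhibitor of the kinase S6K1, was followed in the s.c. adipose tissue (SAT) of mice on a high-fat diet (HFD), from the 6 SAT arrays of a series of 12. The other 6 arrays were of the liver of the same animals. The members were all 6 SAT arrays, 3 of HFD + LY mice minus 3 of HFD mice, and every transcript cluster on them, 22206 of 28846 probe sets once 6640 controls were left out. All animals were C57BL/6N males, 8 weeks old at the start, with no genetic change named. HFD + LY mice (animals 16, 18 and 20) received LY by gavage at 25 mg/kg every 12 hours for 12 weeks, and HFD mice (animals 8, 11 and 14) received vehicle. Both groups were fed the HFD (60% kcal fat) during the final 10 weeks, and each array held the inguinal fat of 1 mouse. No lean or chow-fed array was part of the comparison, so the values describe LY under the diet and not a return towards lean fat.

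S6K1 is a kinase that mTORC1 switches on when insulin and amino acids are plentiful. It phosphorylates the ribosomal protein S6 and other substrates, and through them promotes protein synthesis, cell growth and the entry of precursor cells into the adipogenic lineage. Subcutaneous fat is built of large lipid-filled adipocytes, and between them lie progenitor cells, capillaries, macrophages and a collagen scaffold, which are all remodelled as a depot grows on a rich diet.

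The arrays carried the signals of fat. Adiponectin (Adipoq) lay between 13.29 and 13.63 on the log2 scale on all 6 arrays and perilipin (Plin1) between 12.63 and 13.01. Log2 signals are the deposited RMA values, in which 1 unit is a doubling of fluorescence, and signals of different probe sets are not compared here. Of hepatocyte genes, Apoa1 reached 8.40 and Ttr 7.998 in SAT, against at least 13.46 and 13.76 on the liver arrays. Albumin (Alb) lay between 10.29 and 10.59 on 5 SAT arrays and at 8.84 on that of HFD + LY animal 20, against at least 14.43 in liver. Ucp1, the uncoupling protein of brown fat, lay between 6.03 and 7.55, highest on the array of HFD animal 11.

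A skeletal muscle signal was present on some of the arrays. Myh4, the heavy myosin of the fastest fibres, had log2 signals of 6.997, 14.40 and 11.16 in HFD animals 8, 11 and 14 and of 6.93, 7.50 and 14.20 in HFD + LY animals 16, 18 and 20, the order kept below. Tnnt3, the fast troponin T, had 6.26, 13.26 and 8.10 in HFD and 5.95, 6.41 and 12.72 in HFD + LY. Both genes were thus far higher on the arrays of HFD animal 11 and HFD + LY animal 20 than on the others, with HFD animal 14 between. In 29 of 30 fast fibre genes those 2 arrays were the highest, and the range of a gene over the 6 arrays was 2.35 to 7.47 with a median of 5.04. The mean of the 30 genes was 12.4 in animal 11 and 12.0 in animal 20, 8.78 in animal 14, and 7.68 to 7.81 in the rest. Over all probe sets, 183 lay more than 1 log2 unit higher on both of these arrays than on any of the others, and 29 of those were listed fibre genes. One such array fell in each group, and 0 of the 30 genes passed an unadjusted p of 0.05 between the groups, with a median log2 difference of -0.515. All results are therefore given with all 6 arrays, and the main ones again without animals 11 and 20. The part of the muscle signal in them was not tested.

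**Figure D1:**
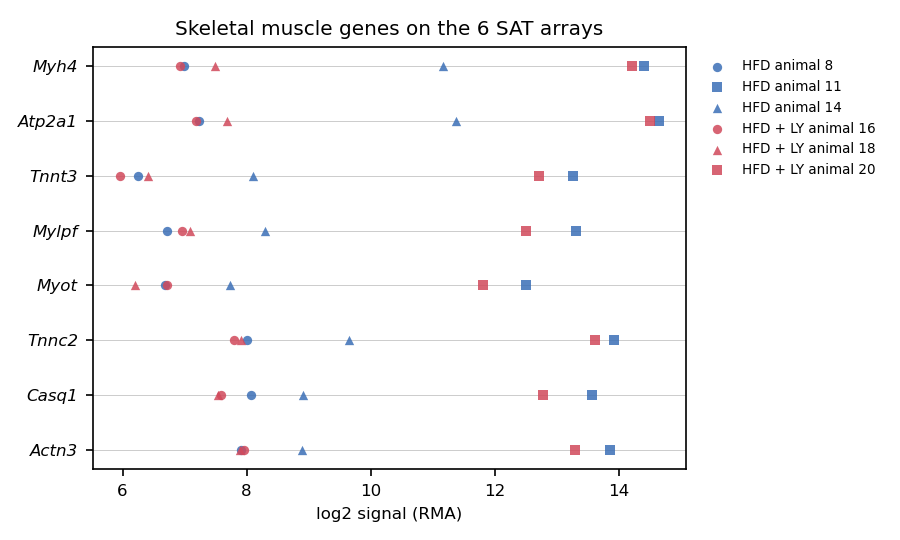
Log2 signals (RMA, x axis) of the 8 fast fibre muscle genes with the widest range over the SAT arrays. Each point is 1 array, blue for HFD and red for HFD + LY. For every gene shown, HFD animal 11 and HFD + LY animal 20 (squares) stand apart to the right, and HFD animal 14 (blue triangles) lies between them and the rest.

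Each probe set was compared between HFD + LY and HFD by limma. At an adjusted p under 0.05 it called 0 of 22206 probe sets (0%), with a smallest adjusted p of 0.108. At an unadjusted p under 0.05, 413 were higher in HFD + LY (1.86%) and 708 were lower (3.19%), so that 36.8% of these lay on the higher side, against 49.1% after quantile normalization within SAT. Together these were 1121 of 22206, near the share that this threshold gives when no probe set differs. The arrays of the groups did not overlap in 890 probe sets that were higher (4.01%) and 1217 that were lower (5.48%). Their total of 2107 was near the share of 0.1 in which 3 arrays separate from 3 when nothing differs. With animals 11 and 20 left out, which leaves 2 arrays a group, 167 probe sets (0.752%) passed limma's adjusted threshold on the higher side and 406 (1.83%) on the lower side. At an unadjusted p under 0.05, 1747 were then higher and 2298 lower. With 1 animal left out, the higher and lower counts were 249 and 355 (animal 8), 449 and 1442 (11) and 370 and 439 (14). They were 218 and 333 (16), 266 and 406 (18) and 1496 and 1226 (20). Counts of list members without an animal are to be read beside these. Counts of genes below refer to the unadjusted p over all 6 arrays unless another test is named, and such genes are called higher or lower, since none of them passed the adjustment. Percentages of a list stand against the 1.86% higher and 3.19% lower of all probe sets. Fewer cells of a type and less RNA per cell cannot be told apart in such bulk samples.

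Genes are named by a rule: the 25 highest and the 25 lowest log2 differences among genes at an unadjusted p under 0.01 whose groups did not overlap, the major urinary protein genes aside. Of 185 candidates, 62 were higher and 123 lower. The 25 highest differed by 0.66 to 1.38 and the 25 lowest by -2.31 to -0.69. Without animals 11 and 20, 21 of the 25 highest and 25 of the 25 lowest passed an adjusted p of 0.05, and the median difference moved from 0.86 to 0.93 in the first and from -0.81 to -1.05 in the second. The genes were picked on these same arrays, and animals 11 and 20 often lay nearest to the other group. Such passing was therefore likely from the choice alone and is no separate evidence.

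**Figure D2:**
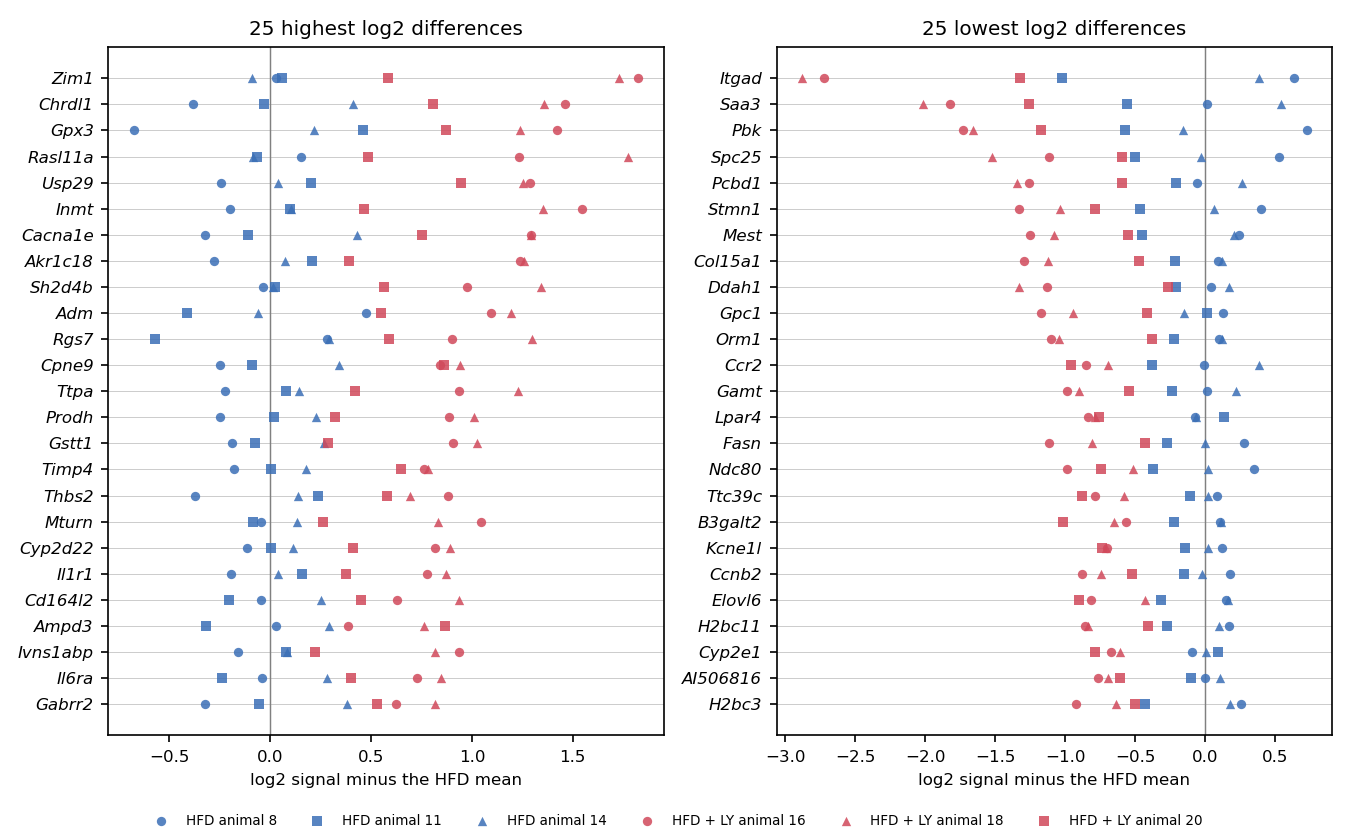
Log2 signal minus the mean of the HFD arrays (x axis) for the 25 highest (left) and 25 lowest (right) log2 differences. Each point is 1 array, blue for HFD and red for HFD + LY. By the rule the colours do not overlap in any row, and in 41 of the 50 rows the red square of HFD + LY animal 20 is the red point nearest to the blue ones.

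The arrays with the muscle signal often faced the opposite group. Among the 123 lower candidates, HFD animal 11 was the HFD array nearest to the treated ones in 101, and HFD + LY animal 20 the treated array nearest to the HFD ones in 79. Among the 62 higher candidates, animal 20 was the nearest treated array in 47, while animal 11 was the nearest HFD array in 19 and animal 14 in 34. Counts of list members at an adjusted p without animals 11 and 20, given below, are therefore no separate evidence.

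Genes of the dividing cell formed the group with the most members on the lower side. Of 85 measured genes of the cell cycle and mitosis, 35 were lower (41.2%, against 3.19% of all probe sets) and 0 higher, and in 32 the arrays did not overlap. The median log2 difference of the list was -0.29, where that of all probe sets was -0.005. Mki67, the antigen that marks cycling cells, had 9.73, 8.21 and 9.12 in HFD and 7.87, 7.95 and 8.07 in HFD + LY. The log2 difference was -1.06 (standard error 0.33, limma's unadjusted p = 0.0123). Top2a, the topoisomerase that untangles replicated DNA, had 8.41, 7.95 and 8.37 in HFD and 7.48, 7.72 and 8.06 in HFD + LY. The array of HFD animal 8 was the highest for both genes, and for Top2a that of HFD animal 11 lay below that of HFD + LY animal 20.

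At the kinetochore, where chromosomes attach to the spindle, Spc25 had 8.46, 7.43 and 7.90 in HFD and 6.82, 6.41 and 7.34 in HFD + LY. HFD + LY minus HFD was -1.08 for Spc25 (standard error 0.30, unadjusted p = 0.00692 from limma). Its partner in the same complex, Ndc80, had 8.22, 7.50 and 7.89 in HFD and 6.88, 7.35 and 7.13 in HFD + LY. By limma Ndc80 differed by -0.75 with a standard error of 0.20 (unadjusted p = 0.00511). The subunit Nuf2 differed by -0.49, the centromeric histone Cenpa by -0.48 and the motor Cenpe by -0.49. For Spc25 the lowest HFD array and the highest HFD + LY array were 0.10 apart, and these were again animals 11 and 20.

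Of the kinases and cyclins that drive mitosis, Pbk had the lowest difference of the list. Its log2 signals were 9.12, 7.82 and 8.24 in HFD and 6.67, 6.73 and 7.22 in HFD + LY. This gave Pbk a log2 difference of -1.52 (standard error 0.31, limma, unadjusted p = 0.00127). Ccnb2, a cyclin of mitotic entry, had the smallest p of the list, with 9.11, 8.78 and 8.91 in HFD and 8.05, 8.19 and 8.41 in HFD + LY. Between the groups Ccnb2 differed by -0.71 (standard error 0.13) at an unadjusted p of 0.000629 from limma. Cdk1, the kinase that B-type cyclins activate, differed by -0.999, but its groups overlapped. Before mitosis, Ccne2, a cyclin of S phase entry, differed by -0.53, and Asf1b, a chaperone that hands new histones to replicated DNA, by -0.56. Stmn1, a protein that destabilises microtubules, had 10.70, 9.84 and 10.37 in HFD and 8.97, 9.26 and 9.51 in HFD + LY. Its log2 difference was -1.05 with a standard error of 0.23 (limma, unadjusted p = 0.00172). The treated arrays lay below every HFD array in each of these except Cdk1. Of 25 measured cell cycle inhibitors and p53 targets 0 were lower or higher, which in a list of this size is close to the shares of all probe sets. Without animals 11 and 20, 4 of them were lower and 3 higher, where 2298 and 1747 of all probe sets were. Cdkn1a, the p21 inhibitor, had 12.31, 11.66 and 12.06 in HFD and 10.91, 11.18 and 12.51 in HFD + LY, with its highest and lowest arrays both among the treated mice.

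Mitotic genes are known to share promoter elements. The CHR, with the letters TTTGAA, is recognised by the MuvB complexes that silence these genes in resting cells, and CCAAT is bound by NF-Y. Windows of 250 bases before to 50 after the start (RefSeq, GRCm38.p6) were found for 27 of the 35 lower members. TTTGAA stood on either strand in 18 of the 27 windows (66.7%, against 17.9% of all 32851 promoters of the table), CCAAT in 21 (77.8%, against 37.4%), and both in 16 (59.3%, against 6.95%). The 2 motifs can share at most 1 base. The stretches from 120 bases before to 30 after the start are printed for the 3 members of smallest p that hold both, as an example of how the elements lie, with every match on either strand in capitals. They lie at chr9:70421525-70421674 (minus strand), chr8:83955574-83955723 (plus strand) and chr2:69206184-69206333 (minus strand).
Ccnb2: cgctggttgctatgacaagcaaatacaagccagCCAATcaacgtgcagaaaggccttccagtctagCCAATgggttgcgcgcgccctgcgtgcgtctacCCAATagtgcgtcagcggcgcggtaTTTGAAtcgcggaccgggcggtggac
Asf1b: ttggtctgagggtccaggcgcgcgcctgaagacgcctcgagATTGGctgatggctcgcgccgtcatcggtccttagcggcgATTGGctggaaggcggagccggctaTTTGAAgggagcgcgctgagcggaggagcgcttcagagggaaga
Spc25: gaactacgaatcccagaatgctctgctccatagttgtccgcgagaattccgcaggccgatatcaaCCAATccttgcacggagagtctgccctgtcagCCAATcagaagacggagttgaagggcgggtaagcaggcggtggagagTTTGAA
In each of the 3, TTTGAA follows CCAAT elements and lies near the start. These matches describe letters and not binding. The 27 windows come from a list of cell cycle genes, which are known to share these elements. Its members that were not lower were not counted, so the excess over all promoters says nothing about LY.

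The core histones that package new DNA were lower as well. Of 57 measured histone genes, 24 were lower (42.1%) and 0 higher, with a median log2 difference of -0.26. The count was uneven between classes: it was 12 of 15 for H2B, 6 of 13 for H2A, 5 of 10 for H3, 1 of 11 for H4 and 0 of 8 for the linker histone H1. H2bc11 had 10.78, 10.34 and 10.70 in HFD and 9.75, 9.77 and 10.20 in HFD + LY. The log2 difference was -0.70 (standard error 0.16, limma's unadjusted p = 0.00289). H2bc3 had 10.20, 9.52 and 10.12 in HFD and 9.03, 9.31 and 9.45 in HFD + LY. HFD + LY minus HFD was -0.69 for H2bc3 (standard error 0.20, unadjusted p = 0.00828 from limma). Both genes separated the groups, again with animals 11 and 20 as the facing arrays. The H2B genes are near-identical in sequence, so their probe sets may read the same transcripts and are not 12 separate measurements.

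The count of lower cell cycle genes was 17, 52 and 21 without HFD animals 8, 11 and 14 in turn, and 18, 25 and 30 without HFD + LY animals 16, 18 and 20, while that of histones was 8, 34, 12, 7, 12 and 29 in the same order. Without both animals 11 and 20 it was 54 and 42, of which 26 and 17 passed an adjusted p of 0.05, against 1.83% of all probe sets. Macrophage genes, which follow, were high on the same HFD arrays. The mean log2 signal of the cell cycle list was 8.50, 8.03 and 8.30 in HFD animals 8, 11 and 14 and 7.87, 7.95 and 7.99 in HFD + LY animals 16, 18 and 20, and that of the macrophage list was 9.53, 9.08 and 9.61, and 9.13, 9.22 and 9.17. The part of 1 in the other was not tested.

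**Figure D3:**
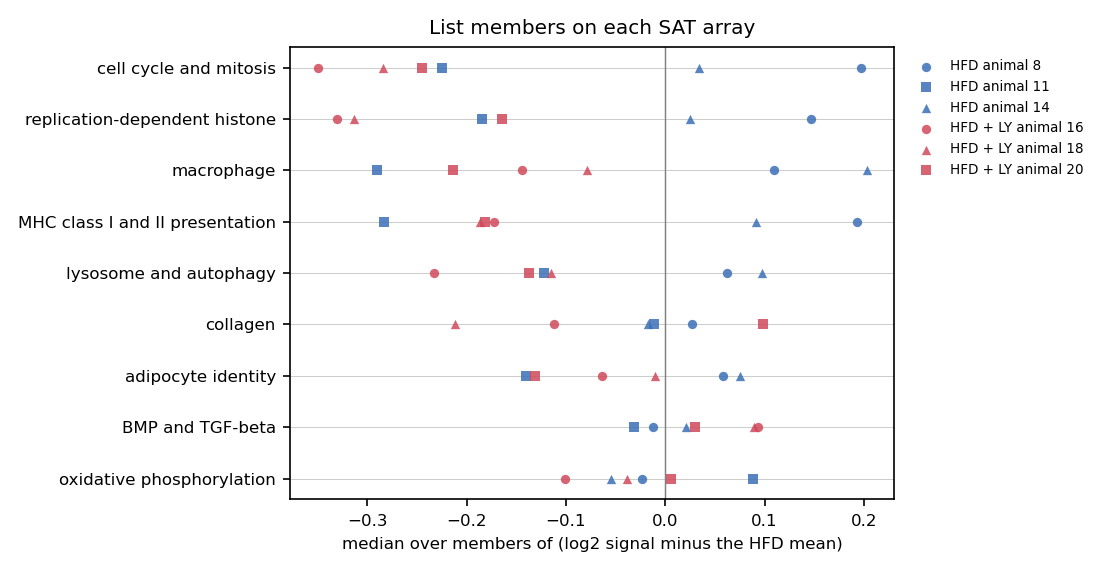
Median over the members of a list of the log2 signal minus the HFD mean (x axis), 1 point per SAT array, blue for HFD and red for HFD + LY. HFD animals 8 and 14 lie to the right for the cell cycle, histone, macrophage, MHC and lysosome lists, and HFD animal 11 (blue square) lies close to the treated arrays for all of these and left of them for macrophage and MHC. For oxidative phosphorylation the groups mix, and HFD animal 11 and HFD + LY animal 20 (squares) lie furthest to the right.

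Of 41 measured macrophage genes, 30 had a negative difference, and 6 were lower (14.6%) and 0 higher. Itgad, the integrin CD11d of resident macrophages, had the lowest difference of all named genes, with 10.14, 8.48 and 9.89 in HFD and 6.78, 6.62 and 8.18 in HFD + LY. By limma Itgad differed by -2.31 with a standard error of 0.52 (unadjusted p = 0.00216), and its signal was 4.95-fold lower. Ccr2, the receptor by which blood monocytes follow Ccl2 into tissue, had 8.43, 8.06 and 8.82 in HFD and 7.59, 7.74 and 7.48 in HFD + LY. This gave Ccr2 a log2 difference of -0.84 (standard error 0.19, limma, unadjusted p = 0.00206). The myeloid markers Itgam (CD11b) and lysozyme (Lyz2) differed by -0.56 and -0.41. For Itgad the arrays of animals 11 and 20 were 0.30 apart, whereas those of the other HFD and HFD + LY animals were over 3 log2 units apart.

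Adgre1, the surface antigen that most mouse macrophages share, had 8.94, 8.39 and 8.88 in HFD and 8.54, 8.44 and 8.62 in HFD + LY, and Csf1r, the receptor for their growth factor, had 10.98, 10.59 and 11.04 in HFD and 10.97, 10.88 and 10.70 in HFD + LY. Neither separated the groups. The ligand Ccl2 differed by -0.31 and the tissue-resident marker Mrc1 differed by 0.26 (unadjusted p = 0.203). Of 18 genes of antigen presentation, 4 were lower (22.2%) and all of these belong to class II: H2-DMa (-0.56), H2-Ab1 (-0.43), H2-Eb1 (-0.35) and their regulator Ciita (-0.25). Of 43 lysosomal and autophagy genes, 8 were lower (18.6%) and 1 higher (2.33%). They included the glycogen-cleaving Gaa (-0.40), the hexosaminidase Hexa (-0.43), the protease Ctsh (-0.34), the membrane protein Lamp1 (-0.28) and the proton pump subunits Atp6v1a (-0.26) and Atp6v0d1 (-0.33), and the higher one was the transcription factor Mitf (0.34).

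Without HFD animal 11 the lower counts were 20 macrophage, 7 presentation and 17 lysosomal genes, and without HFD animal 14 they were 3, 0 and 2. Over all probe sets the lower count moved the same way, from 708 to 1442 without animal 11 and to 439 without animal 14. The presentation count was also 0 without animal 8 or 16 and 2 without animal 18, and that of macrophages 3 without animal 16 and of lysosomal genes 2 without animal 8 or 16 and 3 without animal 18. Without both animals 11 and 20, 12, 5 and 7 of them passed an adjusted p of 0.05. Of markers of other white cells, 0 of 27 T and NK cell genes, 0 of 15 B and plasma cell genes and 0 of 12 mast cell genes were higher or lower. Without animal 20, 5 mast cell genes were higher, and without animal 8, 3 T and NK cell genes were. Over all probe sets, 1496 and 249 were higher in those 2 settings. Of 17 neutrophil genes 2 were higher (11.8%) and 1 was lower (5.88%). This was S100a8 (-1.06), a subunit of calprotectin, whose groups overlapped at animals 11 and 20, while the other subunit, S100a9, differed by -0.01 (unadjusted p = 0.941).

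Of 24 genes of the acute phase response, 5 were lower (20.8%) and 1 was higher (4.17%). The higher one was the receptor gene Il6ra (0.66), described below. Saa3, the serum amyloid A of inflamed fat and macrophages, had 10.46, 9.89 and 10.99 in HFD and 8.62, 8.43 and 9.19 in HFD + LY. Between the groups Saa3 differed by -1.70 (standard error 0.29) at an unadjusted p of 0.00041 from limma. Orm1, the acid glycoprotein orosomucoid, had 12.63, 12.31 and 12.65 in HFD and 11.43, 11.49 and 12.15 in HFD + LY. Its log2 difference was -0.84 with a standard error of 0.20 (limma, unadjusted p = 0.00322). Orm2 (-0.57), the lipopolysaccharide-binding protein Lbp (-0.57) and the protease inhibitor Serpina3n (-0.40) were lower with overlapping arrays. Saa3 kept 0.70 between its nearest arrays, animals 11 and 20, while Saa1 and Saa2 differed by -0.05 and 0.02. The lower count was 2 without animal 14, 16 or 18, 3 without animal 8 and 7 without animal 11 or 20.

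Receptors of interleukin 1 were higher and its soluble antagonist lower. Among 45 cytokine and cell death genes, 6 were higher (13.3%) and 4 lower (8.89%). Il1r1, the signalling receptor, had 8.67, 9.02 and 8.90 in HFD and 9.64, 9.73 and 9.24 in HFD + LY. The log2 difference was 0.67 (standard error 0.16, limma's unadjusted p = 0.00257). The decoy receptor Il1r2 differed by 0.91, and the soluble antagonist Il1rn by -1.13. Il1b itself differed by 0.09 (unadjusted p = 0.373). Il6ra, the receptor for interleukin 6, had 10.23, 10.03 and 10.55 in HFD and 10.99, 11.12 and 10.67 in HFD + LY. HFD + LY minus HFD was 0.66 for Il6ra (standard error 0.17, unadjusted p = 0.00431 from limma). Also lower were the necroptosis effector Mlkl (-0.41) and the pattern receptor Tlr8 (-0.46). Of 27 Toll-like and pattern receptors 3 were lower (11.1%), Tlr8 among them. In complement, 5 of 30 genes were higher (16.7%) and 2 were lower (6.67%). The higher ones were C7 (0.73), C2 (0.62), the inhibitor Serping1 (0.31) and the near-identical C1ra (0.37) and C1rb (0.36). The lower ones were Itgam and the cell surface regulator Cd55 (-0.46). The higher complement count was 1 without HFD animal 8 or HFD + LY animal 16 and 3 without animal 11 or 18. The lower one was 8 without animal 11, and without both animals 11 and 20 there were 9 lower and 6 higher, of which 3 and 1 passed an adjusted p of 0.05. The higher cytokine count was 3 without animal 11, 16 or 18 and 11 without animal 20, where 1496 of all probe sets were higher.

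**Figure D4:**
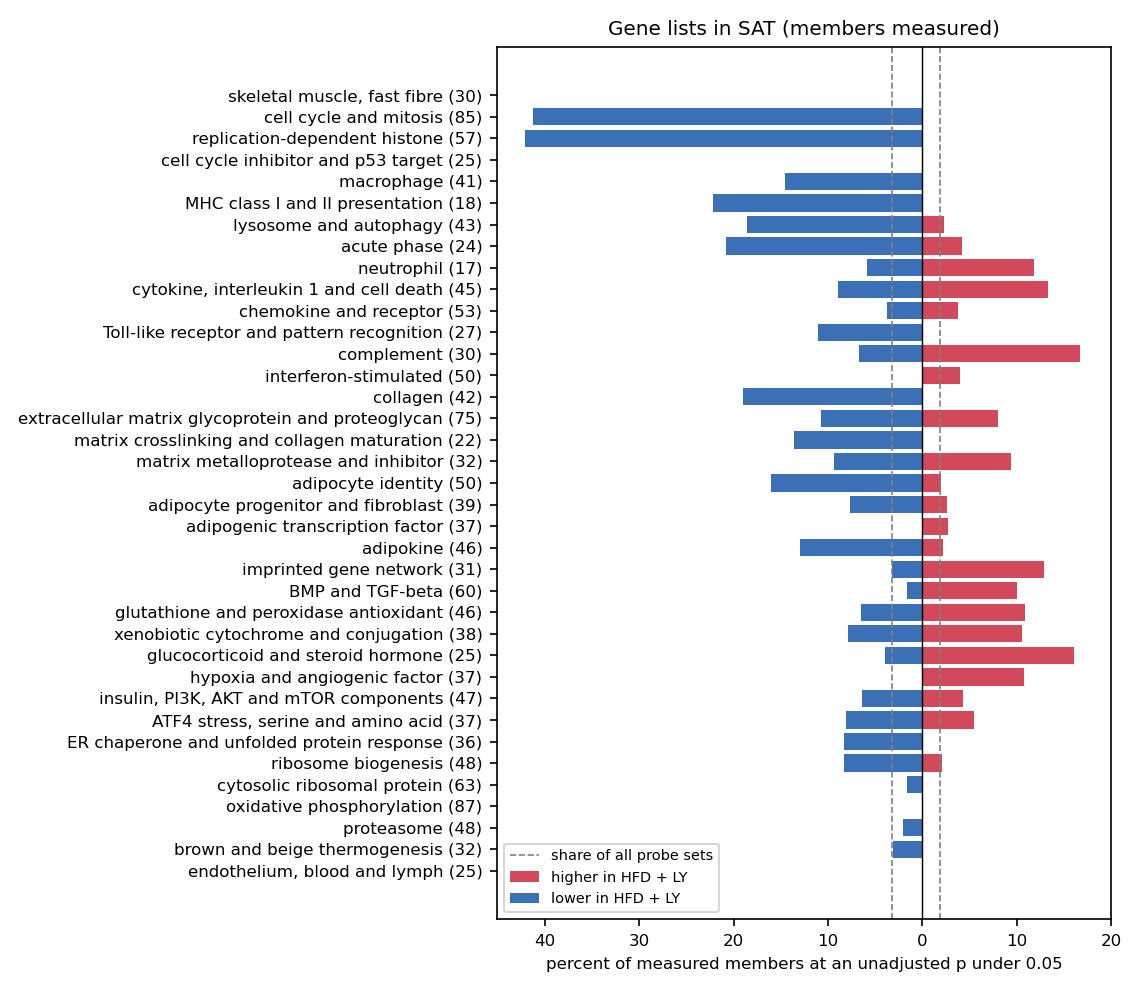
Percent of the measured members of each list at an unadjusted p under 0.05 (x axis), to the left those lower in HFD + LY and to the right those higher, with the number measured in parentheses. The dashed lines are the shares of all probe sets, 3.19% lower and 1.86% higher. The histone (42.1%) and cell cycle (41.2%) bars are the longest.

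Some collagens of the depot's scaffold were lower. Of 42 collagen genes 8 were lower (19%) and 0 higher. The median log2 difference of the list was only -0.06, with 13 members positive, and it was 0.014 without HFD + LY animal 18. Col15a1, a collagen of basement membrane zones around adipocytes and capillaries, had 10.97, 10.66 and 10.997 in HFD and 9.58, 9.76 and 10.40 in HFD + LY. By limma Col15a1 differed by -0.96 with a standard error of 0.21 (unadjusted p = 0.00194). Col3a1, a fibrillar collagen, had 11.39, 11.03 and 11.51 in HFD and 10.75, 10.69 and 10.78 in HFD + LY. This gave Col3a1 a log2 difference of -0.57 (standard error 0.13, limma, unadjusted p = 0.00295). The 8 also held Col6a1 (-0.37), Col6a2 (-0.58) and Col6a3 (-0.43), whose chains join into the collagen VI of the adipocyte surface, and Col4a1 (-0.27) and Col4a2 (-0.41) of basement membranes. Col1a1 and Col1a2, the main fibrillar chains, differed by -0.27 and -0.19 and did not pass. Serpinh1, the chaperone of procollagen, differed by -0.47. The count was 3 without any of animals 8, 14, 16 or 18 and 10 without animal 11 or 20. Without both animals 11 and 20 it was 12, with 7 at an adjusted p under 0.05.

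Other matrix genes lay on both sides, 6 higher (8%) and 8 lower (10.7%) of 75, against 1.86% and 3.19% of all probe sets. Among the higher ones were Thbs2, an antiangiogenic thrombospondin, with 10.16, 10.77 and 10.67 in HFD and 11.41, 11.22 and 11.11 in HFD + LY, and osteomodulin (Omd, 0.61). Among the lower ones were the proteoglycans lumican (Lum, -0.65) and glypican 1 (Gpc1), the latter with 10.01, 9.90 and 9.73 in HFD and 8.71, 8.94 and 9.46 in HFD + LY. Timp4, an inhibitor of metalloproteases abundant in fat, had 11.84, 12.02 and 12.20 in HFD and 12.78, 12.80 and 12.67 in HFD + LY. Between the groups Timp4 differed by 0.73 (standard error 0.12) at an unadjusted p of 0.000235 from limma. Its groups were 0.47 apart, with the treated arrays within 0.13 of one another. The lower matrix count was 4 or 5 without any of animals 8, 14, 16 or 18 and 16 without animal 11, and the higher count was 10 without animal 20.

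Adipocyte genes were lower in 8 of 50 (16%) and higher in 1 (2%). Lpl, the lipase that frees fatty acids from lipoproteins, had 12.03, 11.91 and 12.01 in HFD and 11.36, 11.38 and 11.63 in HFD + LY. Its log2 difference was -0.53 with a standard error of 0.11 (limma, unadjusted p = 0.0012). Gpd1, which supplies the glycerol backbone of triglycerides, had 13.45, 12.91 and 13.20 in HFD and 12.38, 12.53 and 12.75 in HFD + LY. The log2 difference was -0.63 (standard error 0.16, limma's unadjusted p = 0.00411). The secreted factors Rbp4 (-0.33), Adipoq (-0.22) and Retn (-0.22) were lower by smaller amounts, and Vegfa, the growth factor of vessels, was higher (0.26). Pparg, the master regulator of the adipocyte, differed by -0.04 (0.02 after quantile normalization) and Plin1 by 0.06 (-0.05 without animal 11), with overlapping arrays. After quantile normalization within SAT the count of lower adipocyte genes was 4, and it was 4 without any of animals 8, 14, 16 or 18 and 13 without animal 11. Of 39 progenitor genes, 3 were lower (7.69%) and 1 higher (2.56%). The higher ones numbered 4 after quantile normalization or without animal 14 and 7 without animal 20, with 3 lower each time. Of 25 endothelial genes 0 were lower or higher.

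Imprinted genes, which are read from 1 parental copy, lay on both sides. Of 31 measured, 4 were higher (12.9%) and 1 lower (3.23%). Usp29, a ubiquitin-specific protease gene, had the smallest p of all higher genes of the rule, with 5.72, 6.17 and 6.002 in HFD and 7.25, 7.21 and 6.91 in HFD + LY. HFD + LY minus HFD was 1.16 for Usp29 (standard error 0.15, unadjusted p = 5.17e-05 from limma). Its signals on the HFD arrays and that of HFD + LY animal 20 lay below 7.04, the limit of the dimmest 25% of probe sets. Zim1, a zinc finger gene, had 8.15, 8.18 and 8.03 in HFD and 9.95, 9.85 and 8.71 in HFD + LY. By limma Zim1 differed by 1.38 with a standard error of 0.30 (unadjusted p = 0.00175). Peg3, a zinc finger transcription factor read from the paternal copy, had 10.36, 10.40 and 10.57 in HFD and 11.21, 11.06 and 10.78 in HFD + LY. This gave Peg3 a log2 difference of 0.57 (standard error 0.13, limma, unadjusted p = 0.00248). All 3 separated the groups, and for Zim1 HFD + LY animal 20 was 0.52 above the highest HFD array and over 1 unit below the other treated arrays.

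In the RefSeq order of protein-coding genes on chromosome 7, Zim1, Peg3 and Usp29 are next to one another. Peg3 and Usp29 point away from each other, and the bases between the 2 genes are printed because they lie upstream of both. The stretch is chr7:6730463-6730558 (GRCm38.p6, 96 bases, plus strand, so that Usp29 reads to the right and Peg3 to the left), with CCAAT in capitals.
Peg3-Usp29: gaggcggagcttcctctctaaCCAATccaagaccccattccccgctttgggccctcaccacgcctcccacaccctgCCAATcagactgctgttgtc
It holds CCAAT at 2 places and no TTTGAA, and 60.4% of its bases are G or C. The array values do not show from which start the transcripts came.

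Mest, a paternally expressed gene whose level in mouse fat is known to track the expansion of the depot, lay on the other side, with 13.95, 13.26 and 13.92 in HFD and 12.46, 12.63 and 13.16 in HFD + LY. Between the groups Mest differed by -0.96 (standard error 0.23) at an unadjusted p of 0.00352 from limma. Sgce, a sarcoglycan gene read from the paternal copy, differed by 0.42. The imprinted growth factor gene Igf2 differed by -0.09 and Dlk1, a gene of preadipocytes, by 0.04, both with overlapping arrays. With any 1 animal left out the higher imprinted count was 3 to 6. Without animals 11 and 20, the adjusted threshold was passed by 3 on the higher and 2 on the lower side. In the liver of the same mice, Peg3 differed by 0.53, Zim1 by -0.12, Usp29 by 0.27 and Mest by -0.25, and the difference between the tissues did not pass the adjustment for any of the 4.

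**Figure D5:**
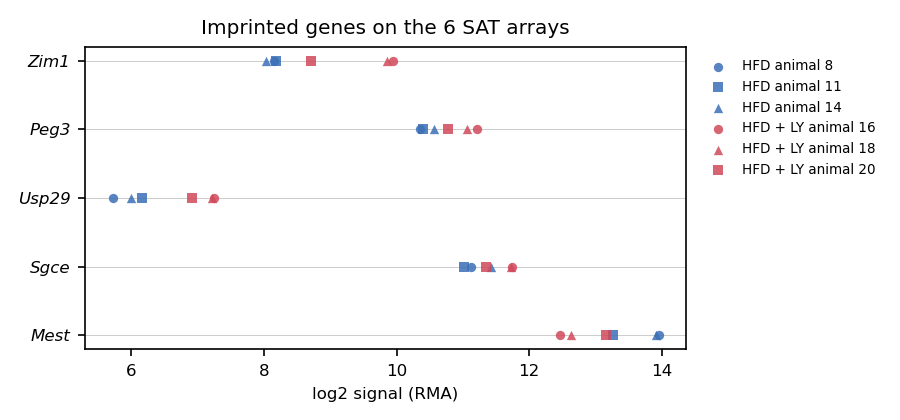
Log2 signals (RMA, x axis) of the 5 imprinted genes at an unadjusted p under 0.05. Each point is 1 SAT array, blue for HFD and red for HFD + LY. Zim1, Peg3 and Usp29 lie higher on the treated arrays, Mest lies lower, and for Sgce the groups overlap.

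BMP and TGF-beta signals steer progenitor cells towards or away from the adipocyte fate. Of 60 genes of BMP and TGF-beta signalling, 6 were higher (10%, against 1.86% of all probe sets) and 1 lower (1.67%). Chrdl1, a secreted antagonist of BMP4, had 9.46, 9.82 and 10.26 in HFD and 11.31, 11.20 and 10.66 in HFD + LY. Its log2 difference was 1.21 with a standard error of 0.23 (limma, unadjusted p = 0.00088). The co-receptor Tgfbr3 differed by 0.49, the receptor Tgfbr1 by 0.31, the inhibitory Smad7 by 0.33, the common mediator Smad4 by 0.23 and the ligand Bmp3 by 0.25. The lower gene was the ligand Tgfb1 (-0.30). The higher count was 3 to 6 with any 1 animal but 20 left out, and 14 without that one. Over all probe sets the higher count also rose without animal 20, from 413 to 1496.

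Glutathione and xenobiotic genes were unequal. Of 46 antioxidant genes 5 were higher (10.9%) and 3 lower (6.52%). Gpx3, the secreted glutathione peroxidase, had 10.59, 11.72 and 11.48 in HFD and 12.69, 12.50 and 12.14 in HFD + LY. The log2 difference was 1.18 (standard error 0.28, limma's unadjusted p = 0.00336). The transferases Gstt1 (0.74), Gsta3 (0.58), Gstm1 (0.42) and Gstt3 (0.42), which join glutathione to foreign compounds, were higher, and members of these families are similar enough that probe sets may share targets. Gclm, the modifier subunit of the enzyme that limits glutathione synthesis, was lower (-0.47). Of 38 xenobiotic genes 4 were higher (10.5%) and 3 lower (7.89%). Cyp2e1, a cytochrome P450 that oxidises ethanol and other small molecules, had 11.75, 11.93 and 11.84 in HFD and 11.17, 11.23 and 11.06 in HFD + LY. HFD + LY minus HFD was -0.69 for Cyp2e1 (standard error 0.10, unadjusted p = 0.000128 from limma). Cyp2d22 lay on the other side (0.71). For Cyp2e1 the facing arrays were those of HFD animal 8 and HFD + LY animal 18, 0.51 apart. Without animal 20 the higher counts were 9 antioxidant and 8 xenobiotic genes, and without animal 11 the lower antioxidant count was 6. Over all probe sets, 1496 were higher in the first setting and 1442 lower in the second.

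Steroid and vessel genes made up smaller groups. Of 25 glucocorticoid and steroid genes 1 was lower (4%, against 3.19% of all probe sets) and 4 were higher (16%, against 1.86%). The higher ones were Akr1c18, which inactivates progesterone (0.96), Hsd11b1, which regenerates active glucocorticoid (0.37), and the glucocorticoid targets Zbtb16 (0.55) and Fkbp5 (0.52). Adm, the vasodilator adrenomedullin, had 11.13, 10.25 and 10.60 in HFD and 11.75, 11.85 and 11.21 in HFD + LY. By limma Adm differed by 0.95 with a standard error of 0.25 (unadjusted p = 0.00513). With Fgf2 (0.47), Angpt1 (0.67) and Vegfa it made 4 of 37 hypoxia and angiogenic genes that were higher (10.8%, against 1.86%), and 0 were lower. The higher steroid count was 2 without animal 8, 16 or 18. The angiogenic count was 2 without animal 14, 16 or 18 and 9 without animal 20, where 1496 of all probe sets were higher.

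Other named genes stood alone. Lpar4, a receptor for lysophosphatidic acid, had 8.80, 9.01 and 8.81 in HFD and 8.04, 8.08 and 8.12 in HFD + LY. This gave Lpar4 a log2 difference of -0.79 (standard error 0.10, limma, unadjusted p = 4.44e-05). It had the smallest p among the 50 genes, and the treated arrays spanned only 0.08. Gamt, the last enzyme of creatine synthesis, had 10.50, 10.24 and 10.70 in HFD and 9.50, 9.58 and 9.94 in HFD + LY. Pcbd1, which recycles tetrahydrobiopterin, had 10.22, 10.06 and 10.54 in HFD and 9.01, 8.93 and 9.68 in HFD + LY. Their log2 differences were -0.81 and -1.06, and neither gene's groups overlapped. Inmt, a methyltransferase of indole amines, had 10.01, 10.30 and 10.31 in HFD and 11.75, 11.56 and 10.67 in HFD + LY. Ttpa, the carrier of vitamin E, differed by 0.86, Prodh, which opens proline breakdown, by 0.74, and Cacna1e, a voltage-gated calcium channel, by 1.11. For Inmt, Ttpa and Prodh the array of HFD + LY animal 20 was at least 0.5 below the other treated arrays.

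The pathway that LY acts on was described by the genes of its components. The gene of S6K1 itself is not described, as its symbol is on no probe set. Rps6, the S6 protein that S6K1 phosphorylates, had 12.29, 12.24 and 12.32 in HFD and 12.25, 12.31 and 12.24 in HFD + LY, with a log2 difference of -0.01 and a standard error of 0.09. The sign of that difference was positive after quantile normalization within SAT (0.04) and without HFD animal 14 (0.007) or HFD + LY animal 20 (0.001). Of 47 genes of insulin, PI3K, AKT and mTOR signalling 2 were higher, the insulin receptor Insr (0.24) and the PI3K regulatory subunit Pik3r1 (0.49), and 3 were lower, the mTORC1 restrainer Sesn2 (-0.31), the lysosomal anchor Lamtor1 (-0.30) and the autophagy kinase Ulk1 (-0.23). These shares, 4.26% and 6.38%, stood against 1.86% and 3.19% of all probe sets. Without animal 16 both counts were 0, while without animal 20 they were 9 and 4, beside 1496 higher and 1226 lower of all probe sets.

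Among the machinery of translation and energy, 1 of 63 cytosolic ribosomal protein genes was lower (1.59%). This was Rpl39l, a paralogue best known from germ cells, with 10.62, 10.31 and 10.83 in HFD and 8.95, 8.19 and 10.64 in HFD + LY, so that the difference lay in animals 16 and 18. Of the 63, 56 had a negative difference, and in 12 every treated array lay below every HFD array, against 5.48% of all probe sets. Their median difference was -0.06, and -0.006 after quantile normalization within SAT. Of 87 genes of oxidative phosphorylation 0 were higher or lower, and their median difference was -0.04 (0.007 after quantile normalization, 0.008 without animal 11). Among them 68 had a negative difference, and in 9 the treated arrays all lay below the HFD arrays. The mean of this list was highest on the arrays with the muscle signal, 12.01 in animal 11 and 11.91 in animal 20, against 11.77 to 11.84 in the rest. In ribosome biogenesis, 4 of 48 were lower (8.33%). The transcription factor Myc (0.58) was the 1 higher (2.08%). Of the ATF4 genes that supply serine and cysteine, Phgdh (-0.50) and Cth (-0.66) were lower, within 3 lower (8.11%) and 2 higher (5.41%) of 37. The lower count was 6 without animal 11. Of 32 thermogenic genes 1 was lower, S100b (-0.73), a share of 3.12% beside 3.19% of all probe sets. Ucp1 differed by -0.22 (limma's unadjusted p = 0.589), which was 0.28 without animal 11. The mean of the thermogenic list was also highest in animals 11 and 20, at 9.009 and 8.885, against 8.631 to 8.716 in the rest.

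Whether LY acted differently in SAT and liver was tested as an interaction of tissue and treatment in limma over all 12 arrays. It passed an adjusted p of 0.05 in 9 of 22206 probe sets (0.0405%). Of these, 5 carry no symbol, 3 are major urinary protein genes and 1 is Cyp4a12b, which differed in the liver. None of the 50 named genes passed. With the animal as a replicate block 0 passed, and without animals 11 and 20 in both tissues 37 did.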

How the data were processed

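RNA of the inguinal SAT and of the liver of the same 6 mice was hybridised to Affymetrix whole-transcript arrays, 1 array per tissue and animal. The deposited log2 signals are RMA values of the authors: background correction, quantile normalization over all arrays and 1 summary per probe set. The labels name RMA and limma without versions. A genome build for the array annotation is not given in the sources used here. The files hold 28846 probe sets. Without the 6640 controls, 22206 were tested, with no filter on dim signals. Of these, 19572 carry 1 symbol and 2634 none. The SAT array medians lay between 8.23 and 8.28. Precision is limited by the number of arrays, and an exact two-sided test of 3 against 3 cannot go below 0.1.

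The groups were compared in R 4.3.3 by limma 3.58.1 with 4 residual degrees of freedom and Benjamini-Hochberg adjustment over all probe sets (threshold 0.05). All p-values in the text come from limma. The SAT fit and the interaction fit, with and without the animal as a block, were first tested on simulated data of known shifts. The other alternatives were not. For a gene with several probe sets, lists use the brightest in SAT. Lists can share members, such as Itgam and Vegfa, so their counts are not separate. The members, the gene lists, the alternatives and the rule for names were chosen with earlier results of these data known, so no list is independent evidence. Named were the 25 highest and 25 lowest differences described in the report, up to 5 members of each list and direction with the smallest p, the first 3 of each list, the 8 muscle genes of widest range, 8 interaction genes in each direction, and Rps6. Predicted genes, receptor families of smell, immune receptor segments, small RNAs and Mup genes were left out of the first rule. Nuf2, Cenpa, Cenpe, Cdk1, Mrc1, Col1a1, Col1a2, Col4a1, Col6a3, Plin1, Igf2, Dlk1 and S100a9 were named after their values were seen. Probe sets of near-identical genes may share targets.

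The labels give the same animal numbers in both tissues, and these are the same mice, so the animals pair the tissues. Deviations of the SAT and liver arrays of an animal from their group means correlated by -0.0669 to 0.214 over genes. Within SAT the animals are separate mice and nothing is paired. Alternatives tried were all 12 arrays in 1 fit, a prior with an intensity trend, quantile or median normalization within SAT, leaving out the dimmest 25% of probe sets, array weights, the methods' t-test, probe sets with 1 symbol, the muscle mean as a covariate, leaving out animals 11 and 20 together, and the omission of each animal in turn. For lists, the mean over a symbol's probe sets and lists without muscle genes were added. Promoter sequences came from RefSeq (GRCm38.p6). Rps6kb1 (S6K1) and Srebf1 are not reported here, as neither symbol is on a probe set.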

Additional observations from a re-analysis of the deposited data

Results flagged for a closer look

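The 4 results here were picked out because the log2 difference of HFD + LY minus HFD differed between SAT and liver by the interaction test of limma over all 12 arrays. Cyp4a12b, a cytochrome P450 of fatty acid hydroxylation, differed by -0.02 in SAT and -1.53 in liver, so that SAT minus liver was 1.512 (adjusted p = 0.0013). For the major urinary protein genes the value in SAT lay below that in liver, with SAT minus liver at -1.517 for Mup2, -1.439 for Mup22 and -1.663 for Mup19 (adjusted p = 0.034 each). These 3 genes are near-identical, and their values may come from the same transcripts. With the animal as a replicate block, which pairs the tissues of a mouse, none of the 4 passed, with adjusted p = 0.0813 for Cyp4a12b and 0.0944 for the other 3 from limma.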

How the results depend on the processing

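The count of SAT probe sets past the adjusted threshold was 0 with all 6 arrays, 17 with all 12 arrays in 1 fit, 355 with array weights, 14 with the muscle mean as a covariate and 573 without animals 11 and 20. It was 0 in the other settings and 0 to 1 with 1 animal left out, the 1 without HFD + LY animal 20. The count at an unadjusted p under 0.05 was 1121, and 4761, 1777 and 4045 with array weights, the muscle covariate and without animals 11 and 20. With 1 animal left out it ran from 551 without animal 16 to 2722 without animal 20, with 604, 672 and 1891 without animals 8, 18 and 11. The probe sets whose groups did not overlap numbered 2107, and 10969 without animals 11 and 20, where 2 arrays face 2. The array weights were lowest for animals 20 and 11 (0.319 and 0.4639) and highest for animal 16 (4.46). Leaving out animals 11 and 20 leaves HFD animal 14, which has a lesser muscle signal. The causes of these shifts were not tested.

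The interaction count of 9 was 0 with the animal as a replicate block, 37 without animals 11 and 20 in both tissues, and 0 to 9 with 1 animal left out, namely 0 without animal 14, 1 without animal 8, 11 or 18 and 5 without animal 20. At an unadjusted p under 0.05 the replicate block gave 1471 and the fit without it 1380.

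Of 37 list medians, 19 turned sign in at least 1 of 13 settings, 48 values in all. The fast fibre muscle list turned from -0.515 to 0.814, 0.159 and 0.0935 without animal 11, 16 or 18. The other 18 lists had medians of at most 0.0575 in size and at most 0.0807 after the turn. Among them, the chemokine list had 0.0334 with all arrays, -0.011547 without animals 11 and 20, and -0.014168 to 0.054939 with 1 animal left out, the lowest without animal 20.

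Of 213 named genes over 11 settings, 52 values turned sign. The 8 muscle genes were positive without animal 11. With 1 animal left out the log2 differences of genes that turned are given as ranges, with the animal left out in parentheses. They ran from -0.031781 (11) to 0.0071468 (14) for Rps6, from -0.073483 (11) to 0.051799 (8) for Cyp4a12b, from -0.071872 (14) to 0.17648 (18) for Slc10a2, from -3.6375 (20) to 0.46492 (11) for Myh4, from -3.6498 (20) to 0.4845 (11) for Atp2a1 and from -3.0209 (20) to 1.1854 (11) for Tnnt3. Others ran from -2.4143 (20) to 1.3489 (11) for Mylpf, from -2.5171 (20) to 1.0324 (11) for Myot, from -2.6729 (20) to 0.94147 (11) for Tnnc2, from -2.6143 (20) to 0.81509 (11) for Casq1, from -2.2879 (20) to 1.3175 (11) for Actn3 and from -0.046752 (11) to 0.13766 (20) for Plin1. Further ones ran from -0.033537 (18) to 0.12082 (11) for Dlk1, from -0.16312 (11) to 0.065398 (14) for Csf1r, from -0.17528 (20) to 0.043227 (18) for Saa1, from -0.0061137 (18) to 0.043931 (16) for Saa2, from -0.12022 (11) to 0.04335 (20) for Pparg and from -0.47195 (8) to 0.28023 (11) for Ucp1. They ran from -0.12776 (20) to 0.077722 (18) for S100a9. The values that turned with quantile normalization within SAT were Rps6 0.035923, Csf1r 0.0092946, Pparg 0.016983 and S100a9 0.0061054. The values that turned with array weights were Cyp4a12b 0.0051732, Saa2 -0.01699 and Ucp1 0.033453. The values that turned with the muscle mean as a covariate were Mylpf 0.12117, Actn3 0.17459 and S100a9 0.0077379. The values that turned without animals 11 and 20 were Ucp1 0.4283 and Alb 0.036116.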
